A study of Mus musculus with 16 samples.

Results

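Reactive astrocyte genes were followed in the whole brain of mice that lacked progranulin (Grn), the microglial receptor Trem2, or both. The genes are Gfap, Cp, Hspb1, Osmr, Stat3 and Cd44, 6 of the 770 genes on an nCounter neuropathology panel. They were taken from it by name, with earlier results of these data known. RNA came from total brain of 16 female mice aged 6 months, with 4 animals in each of 4 genotypes. These were the Grn/Trem2 double knockout, which carries neither gene, the Grn knockout, the Trem2 knockout, and wild type (WT). The labels name the genotypes without the alleles or the strain, and they give no run or cartridge, so no batch could be examined. Each animal has a number of its own, so the limma p-values below rest on the spread between animals.

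Astrocytes answer injury and inflammation by enlarging and by making more intermediate filament, of which the glial fibrillary acidic protein encoded by Gfap is the standard marker. Cytokines of the interleukin-6 family, such as oncostatin M, act through receptor chains paired with gp130, and the transcription factor Stat3 carries that signal to the nucleus, where Gfap is among its known targets. Microglia are a known source of factors that set off this response, and loss of progranulin is known for activated microglia, while Trem2 is a receptor that microglia need for their activated state. Cp encodes ceruloplasmin, a copper-carrying ferroxidase that astrocytes hold at their surface. Hspb1 encodes a small heat shock protein, and Cd44 encodes a receptor for hyaluronan. Cp, Hspb1, Osmr and Cd44 are, with Gfap, part of the pan-reactive astrocyte signature known from mouse.

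In the double knockout, Gfap, Cp and Hspb1 averaged about 0.69 of their Grn knockout levels (folds of 0.687, 0.697 and 0.690 from limma). The 4 animals of each of these genotypes did not overlap for Gfap and Cp, and they overlapped for Hspb1, Osmr, Stat3 and Cd44. Over the 708 panel genes tested, 4.38% did not overlap between these genotypes. Gfap had its highest mean in the Grn knockout and its lowest in the Trem2 knockout. None of the 6 genes passed an adjusted p of 0.05 in any of 8 comparisons, 48 tests in all, so each difference given for them is a measured value that did not pass the test over the panel. Few panel genes passed at all, from 0% to 0.706% of those tested in each comparison. Gfap and Cp moved together from animal to animal, also inside genotypes (Pearson r = 0.86, permutation p adjusted over 15 pairs = 0.0141).

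The assay hybridises colour-coded probes to RNA and counts them without amplification. Values are normalized counts, that is, a whole probe count multiplied by 1 factor per animal (0.907 to 1.36), which sets the geometric mean of 10 reference genes to the same level everywhere. Dividing by that factor gave 477113 to 767742 counts per animal over the panel. All 6 genes lay above the background threshold, the mean plus 2 SD of the negative control probes, in all 16 animals. Grn measured 9.48 to 23.1 in the 8 animals labelled as lacking it, against 544 to 662 in the other 8, and Trem2 measured 5.02 to 35.4 in the 8 labelled as lacking it, against 128 to 251 in the other 8. The 35.4, in a Trem2 knockout animal, was the 1 value of a deleted gene above its animal's background threshold. The astrocyte, neuron and oligodendrocyte markers on the panel (6, 3 and 6 genes) were above background in every animal, as were 7 of 8 microglia markers.

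The promoters of Gfap, Cp and Hspb1 are shown because each was lower in the double knockout than in the Grn knockout at an unadjusted limma p under 0.05. Each window runs from 250 bases before to 50 bases after the start of transcription in RefSeq (GRCm38.p6), 5′ to 3′ on the strand of the gene, and capitals mark the motif matches described after the sequences.
Gfap, chr11:102897151-102897450, minus strand: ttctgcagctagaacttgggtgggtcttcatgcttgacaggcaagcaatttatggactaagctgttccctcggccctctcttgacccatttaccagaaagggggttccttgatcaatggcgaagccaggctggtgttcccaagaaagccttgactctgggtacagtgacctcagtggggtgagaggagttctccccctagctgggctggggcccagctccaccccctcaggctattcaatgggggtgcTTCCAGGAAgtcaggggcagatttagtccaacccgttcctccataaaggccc
Cp, the later of its 2 starts, chr3:19956999-19957298, plus strand: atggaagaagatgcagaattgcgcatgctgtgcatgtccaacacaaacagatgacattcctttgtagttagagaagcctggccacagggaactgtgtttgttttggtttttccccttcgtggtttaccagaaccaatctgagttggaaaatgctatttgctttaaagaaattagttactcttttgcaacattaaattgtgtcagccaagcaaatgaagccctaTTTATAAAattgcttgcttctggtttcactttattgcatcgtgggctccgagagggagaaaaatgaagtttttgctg
Hspb1, chr5:135887669-135887968, plus strand: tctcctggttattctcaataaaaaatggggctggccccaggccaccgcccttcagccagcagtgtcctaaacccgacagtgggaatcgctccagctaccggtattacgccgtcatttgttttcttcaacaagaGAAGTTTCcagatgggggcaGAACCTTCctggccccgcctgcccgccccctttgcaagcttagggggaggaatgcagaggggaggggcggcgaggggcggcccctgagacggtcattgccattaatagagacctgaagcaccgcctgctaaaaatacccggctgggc

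The 4 letter patterns were searched on both strands and were chosen with the sequences in view. The STAT pattern TTCNNNGAA occurred in the Gfap window, as TTCCAGGAA with its first base at position -2 from the start. It is held by 8.3% of 32851 mouse promoter windows of the same length. The pair of heat shock element units GAANNTTC, held by 7.86% of windows, occurred in the Hspb1 window at positions -117 and -97. The TATA pattern TATAAA, held by 13.6%, occurred in the later Cp window at position -25 and, on the other strand, at -27, so these matches overlap and share their capitals. The AP-1 pattern TGANTCA, held by 7.81%, occurred in the window of the earlier Cp start at -177 and in that of Osmr at 4 bases into the transcript. None of the 4 patterns occurred in the Stat3 and Cd44 windows. A match describes letters and shows no binding, and a missing match says nothing about a factor.

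Gfap, the filament gene, measured 906, 691, 695 and 681 normalized counts in double knockout brains. It measured 914, 1092, 1242 and 1076 in Grn knockout brains, 781, 581, 753 and 438 in Trem2 knockout brains, and 693, 803, 1053 and 628 in WT brains. All double knockout animals lay below all Grn knockout animals, with the highest double knockout value, 906, just under the lowest Grn knockout value, 914. The double knockout overlapped with the Trem2 knockout, and each knockout overlapped with WT. Means were 743 ± 109 in double knockouts, 1081 ± 134 in Grn knockouts, 638 ± 160.3 in Trem2 knockouts and 794 ± 187 in WT (SD, n = 4 each). In limma, the double knockout differed from the Grn knockout by a log2 fold change of -0.54 (SE 0.19, 95% confidence interval -0.94 to -0.14), with an unadjusted p of 0.0109 and an adjusted p of 0.492. The Grn knockout differed from WT by 0.46 (0.07 to 0.86, unadjusted p = 0.0253, adjusted p = 0.726). The Trem2 knockout differed from WT by -0.32 (-0.72 to 0.07, adjusted p = 0.804), and the double knockout from WT by -0.08 (-0.48 to 0.32, adjusted p = 0.916). Between the double and the Trem2 knockout it was 0.25 (-0.15 to 0.64, adjusted p = 0.967). In whole tissue, fewer astrocytes and less Gfap RNA per astrocyte cannot be told apart.

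**Figure D1:**
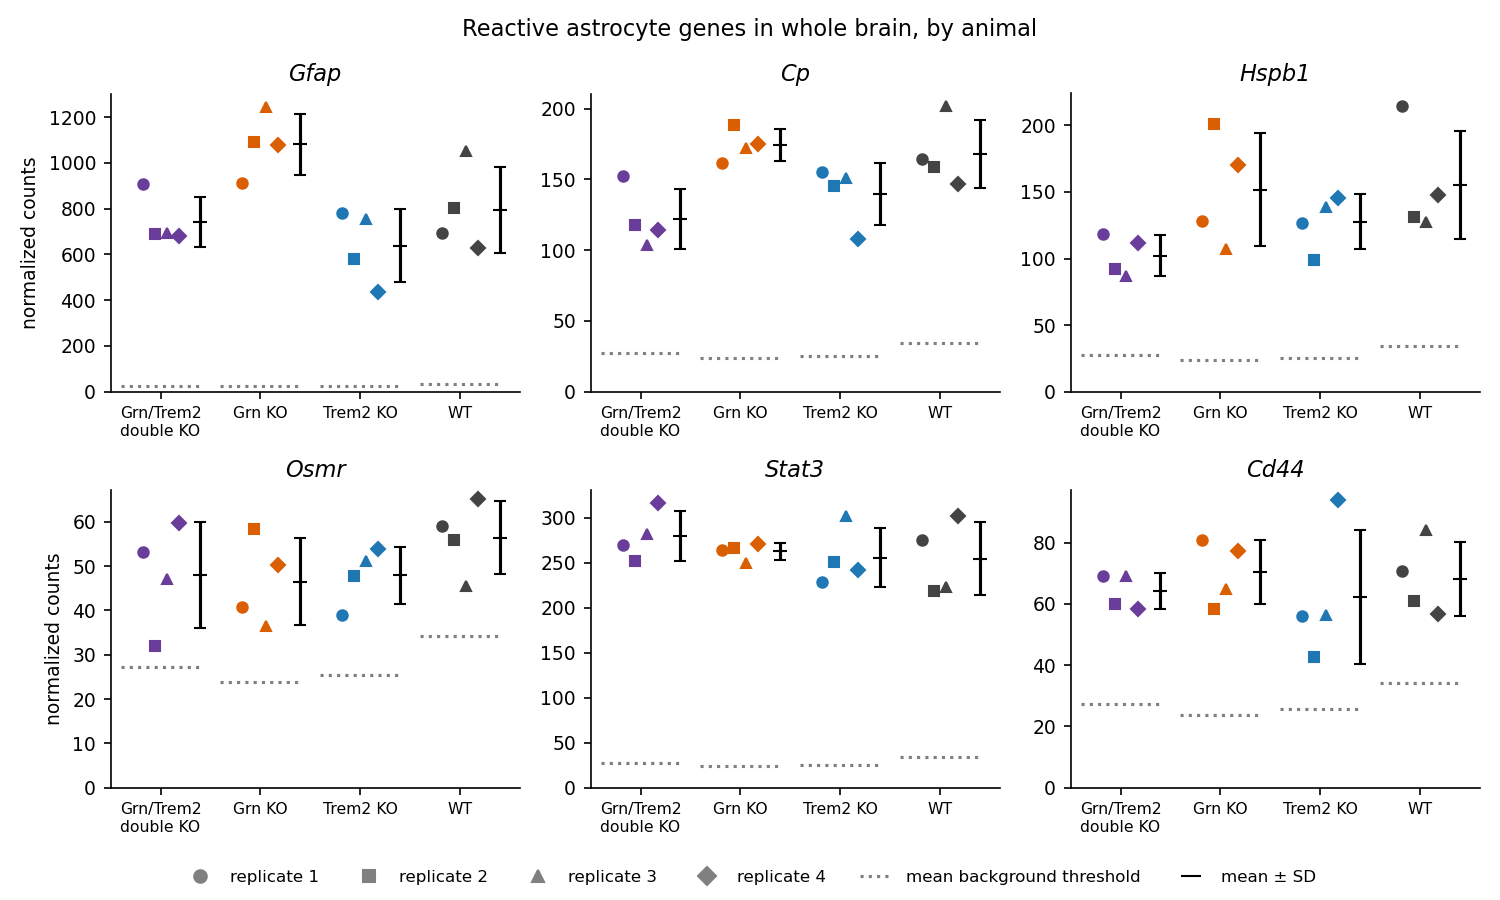
Normalized counts (vertical axis, from 0) of the 6 reactive astrocyte genes in each of 4 animals per genotype, with the mean and SD beside the points and a dotted line at the genotype's mean background threshold. The 4 double knockout animals lie below the 4 Grn knockout animals for Gfap (681 to 906 against 914 to 1242) and Cp (104 to 153 against 162 to 189).

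Cp, the ferroxidase gene, measured 153, 118, 104 and 114 normalized counts in double knockout brains. It measured 162, 189, 172 and 175 in Grn knockout brains, 155, 146, 151 and 108 in Trem2 knockout brains, and 165, 159, 202 and 146.5 in WT brains. The double knockout animals all lay below the Grn knockout animals, while each knockout overlapped with WT. The means were 122 ± 21.2 in double knockouts, 174 ± 11.1 in Grn knockouts, 139.8 ± 21.8 in Trem2 knockouts and 168 ± 23.8 in WT (SD, n = 4 each). By limma, the log2 difference was -0.52 for the double knockout against the Grn knockout (SE 0.13, interval -0.81 to -0.23, unadjusted p = 0.00152, adjusted p = 0.216). Against WT, it was -0.46 for the double knockout (-0.75 to -0.17, adjusted p = 0.226), 0.06 for the Grn knockout (adjusted p = 0.996) and -0.27 for the Trem2 knockout (-0.55 to 0.02, adjusted p = 0.804). Averaged over both Grn states, loss of Trem2 went with a Cp level lower by 0.39 on the log2 scale (log2 fold change -0.39, interval -0.60 to -0.19, unadjusted p = 0.000884, adjusted p = 0.157). Without double knockout replicate 1, the animal with the highest Cp of its group, that value was -0.45 with a limma adjusted p of 0.0359, and over all settings tried the adjusted p ran from 0.0359 to 0.950.

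Hspb1, the small heat shock protein gene, measured 118, 91.9, 86.55 and 111 normalized counts in double knockout brains. It measured 128, 201, 107 and 170.4 in Grn knockout brains, 127, 98.8, 139 and 146 in Trem2 knockout brains, and 214, 131, 128 and 148 in WT brains. The double knockout animals all lay below the WT animals and overlapped with those of either single knockout, and the spread was wide in the Grn knockout and in WT. Means were 102 ± 15.3 in double knockouts, 152 ± 42.3 in Grn knockouts, 128 ± 20.7 in Trem2 knockouts and 155 ± 40.5 in WT (SD, n = 4 each). The limma difference was -0.58 in log2 for the double knockout against WT (interval -1.01 to -0.15, unadjusted p = 0.0122, adjusted p = 0.376). It was -0.54 for the double knockout against the Grn knockout (-0.97 to -0.10, unadjusted p = 0.0185, adjusted p = 0.525). The scaled negative controls averaged 14.7 in double knockouts, 13.4 in Grn knockouts, 14.2 in Trem2 knockouts and 18.3 in WT. Within genotypes, Hspb1 correlated with that measure (r = 0.75, permutation p = 0.00464, adjusted over 21 relations 0.0487, Spearman rho = 0.68 with adjusted p = 0.0916, r = 0.69 without the 2 most distant animals). With each animal's negative controls subtracted, the double knockout differed from WT by -0.62 and from the Grn knockout by -0.62. The part of background in these differences was not tested.

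Osmr encodes the receptor chain that binds oncostatin M. Its normalized counts were 53.2, 31.9, 47.1 and 59.8 in double knockout brains, 40.8, 58.3, 36.6 and 50.4 in Grn knockout brains, 39.1, 47.9, 51.1 and 53.8 in Trem2 knockout brains, and 59.1, 56.0, 45.5 and 65.2 in WT brains. All genotypes overlapped, and Osmr was the gene of the 6 that lay nearest to the background thresholds, which ran from 16.3 to 39.1. Means were 48.0 ± 11.9 in double knockouts, 46.5 ± 9.73 in Grn knockouts, 47.9 ± 6.40 in Trem2 knockouts and 56.4 ± 8.26 in WT (SD, n = 4 each). Against WT, the limma log2 differences were -0.25, -0.28 and -0.23 for the double, Grn and Trem2 knockouts, and the lowest unadjusted p of these was 0.144. The double knockout differed from the Grn knockout by 0.03 (-0.36 to 0.43).

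Stat3, the transcription factor downstream of gp130, measured 269, 252, 282 and 317 normalized counts in double knockout brains. It measured 264, 266, 249 and 271 in Grn knockout brains, 228, 250.5, 302 and 241.5 in Trem2 knockout brains, and 275, 219, 222.5 and 302 in WT brains. All genotypes overlapped. Means were 279.7 ± 27.5 in double knockouts, 263 ± 9.39 in Grn knockouts, 256 ± 32.3 in Trem2 knockouts and 254 ± 40.5 in WT (SD, n = 4 each). The limma log2 differences from WT were 0.14 for the double knockout (-0.09 to 0.38), 0.06 for the Grn knockout (-0.18 to 0.30) and 0.01 for the Trem2 knockout (-0.23 to 0.25). These are levels of Stat3 RNA, and phosphorylation of the protein was not measured.

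Cd44, the hyaluronan receptor gene, measured 69.3, 60.0, 69.2 and 58.4 normalized counts in double knockout brains. It measured 80.8, 58.3, 65.0 and 77.15 in Grn knockout brains, 56.15, 42.8, 56.5 and 93.9 in Trem2 knockout brains, and 70.7, 60.95, 84.1 and 56.7 in WT brains. All genotypes overlapped, and the Trem2 knockout held both the lowest and the highest of the 16 animals. Means were 64.2 ± 5.84 in double knockouts, 70.3 ± 10.5 in Grn knockouts, 62.3 ± 22.0 in Trem2 knockouts and 68.1 ± 12.2 in WT (SD, n = 4 each). Between -0.17 and 0.05 in log2, the limma differences from WT were small beside their intervals, which are equally wide and ran from -0.58 to 0.24 for the Trem2 knockout.

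**Figure D2:**
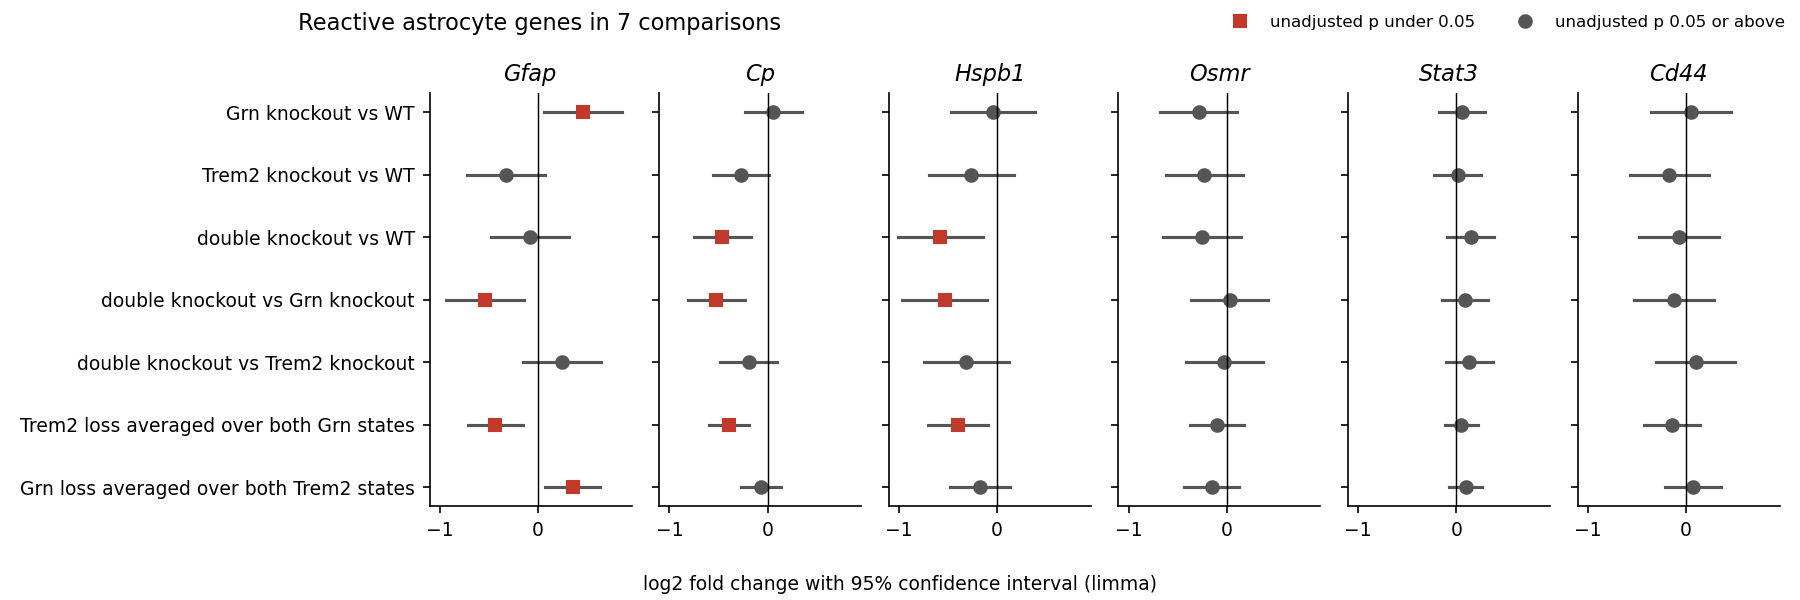
Log2 fold changes of the 6 genes (horizontal axis) in 7 comparisons, with 95% confidence intervals from limma and red squares at an unadjusted p under 0.05. Gfap, Cp and Hspb1 lie below 0 in the double knockout against the Grn knockout (-0.54, -0.52 and -0.54) and for Trem2 loss averaged over both Grn states (-0.43, -0.39 and -0.40), and no point passed an adjusted p of 0.05.

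Across comparisons, the counts of the 6 genes were set against the whole panel, of which 708 genes with a mean of at least 20 were tested with limma, and the comparisons share animals. The 6 genes were chosen with earlier results of these data known, and Gfap and Cp varied together between animals. The shares below therefore describe the values and are no test of the 6 genes as a set. In the double knockout against the Grn knockout, 0 of 6 passed an adjusted p of 0.05, against 0.282% of tested genes (Trem2 and C1qb). At an unadjusted p under 0.05, 3 of 6 passed, all lower (Gfap, Cp and Hspb1), against 7.06% of the panel, and the groups did not overlap for 2 of 6, against 4.38%. The median log2 fold change of the 6 was -0.32, against 0.02 over all tested genes. In the double knockout against WT, 0 passed, against 0.282% (only the deleted genes, Grn and Trem2), and 2 of 6 reached the unadjusted threshold, against 7.63%. One gene, Hspb1, did not overlap there, against 5.37% of tested genes. In the double knockout against the Trem2 knockout, 0 passed, against 0.424%, and 0 reached the unadjusted threshold, against 5.51%. The values nearest to it were -0.32 for Hspb1 (-0.75 to 0.12) and -0.19 for Cp (-0.48 to 0.09). The groups overlapped for all 6 genes in that comparison, where 3.95% of tested genes did not overlap.

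In the Grn knockout against WT, 0 of 6 passed the adjusted threshold, against 0.565% of tested genes, and 1 of 6 (Gfap, higher) reached the unadjusted one, against 5.37%. In the Trem2 knockout against WT, 0 of 6 passed, against 0.141% (only the deleted gene, Trem2), and 0 reached the unadjusted threshold, against 4.66%. In these 2 comparisons the groups overlapped for all 6 genes, and 3.39% of tested genes did not overlap in each. Of the 6, 5 had a log2 fold change below 0 in the Trem2 knockout against WT, with a median of -0.25, against -0.02 over all tested genes. Averaged over both Grn states, Trem2 loss gave 0 of 6 past the adjusted threshold, against 0.282%, and 3 of 6 at the unadjusted one, all lower, against 8.05%. Gfap then had a log2 fold change of -0.43 (-0.71 to -0.15, unadjusted p = 0.00505, adjusted p = 0.358), and Hspb1 one of -0.40 (-0.71 to -0.09, unadjusted p = 0.0140, adjusted p = 0.463). Gfap measured a median of 693 in the 8 animals without Trem2 and 984 in the 8 with it, and the ranges overlapped. Grn loss averaged over both Trem2 states gave 0 of 6 past the adjusted threshold, against 0.706%, and 1 of 6 at the unadjusted one, against 6.21%. That gene was Gfap, at 0.35 (0.07 to 0.64, adjusted p = 0.530). For the interaction of both losses, 0 of 6 and 0% of tested genes passed, and 0 of 6 reached the unadjusted threshold, against 3.39% of the panel. The interaction was -0.22 for Gfap (-0.78 to 0.34), -0.25 for Cp (-0.66 to 0.15) and -0.27 for Hspb1 (-0.89 to 0.34), so a difference in the effect of Trem2 loss between the Grn states was not shown.

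**Figure D3:**
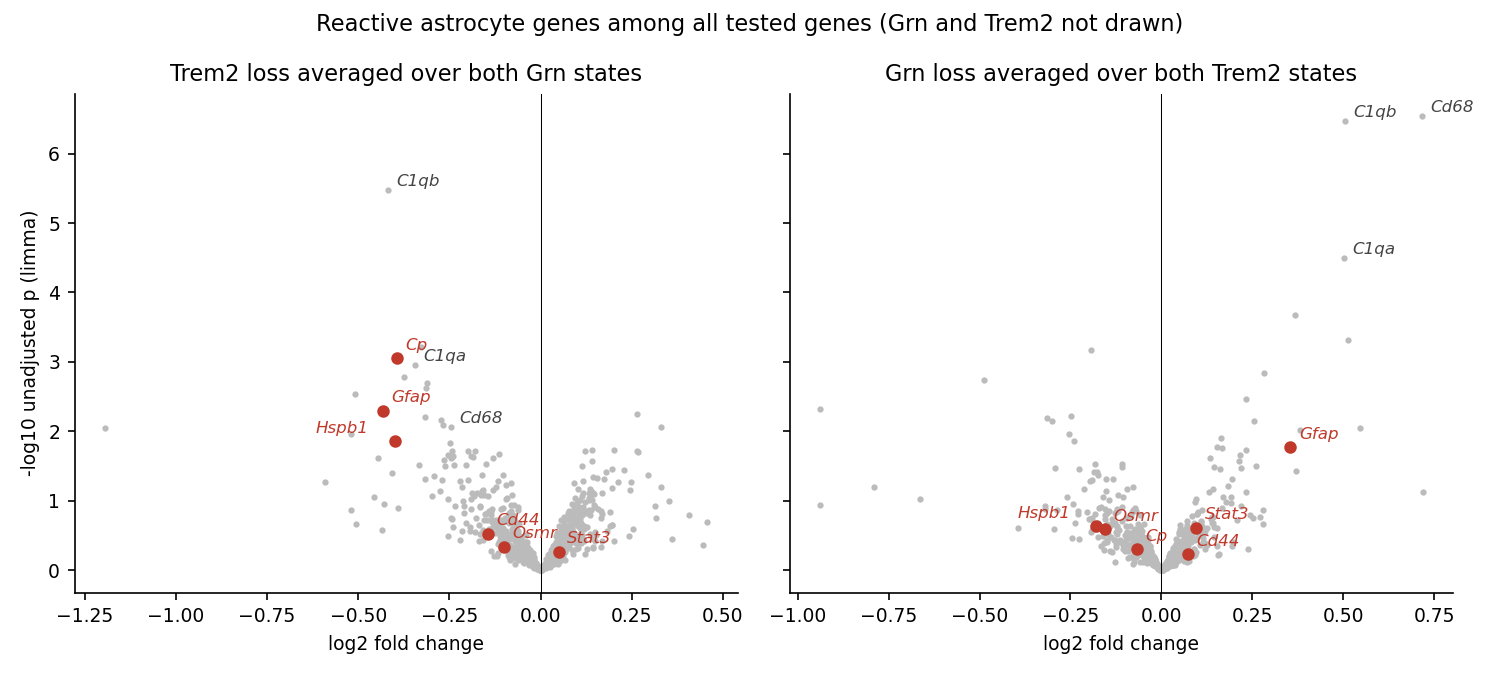
Log2 fold change (horizontal axis) against the negative log10 of the unadjusted limma p (vertical axis) for the tested panel genes, with Grn and Trem2 not drawn, for Trem2 loss (left) and Grn loss (right), each averaged over both states of the other gene. Cp, Gfap and Hspb1 lie on the lower side for Trem2 loss, and Gfap lies on the higher side for Grn loss. In both panels these points sit below C1qb on the vertical axis, that is, at larger p-values.

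Within genotypes, all 6 genes had a larger log2 SD than the median tested gene, Stat3 only slightly (0.161 against 0.158). This SD was not corrected for counting noise, and Osmr and Cd44 had low counts (27 to 61 and 42 to 89 before scaling). Osmr, Gfap, Cd44 and Hspb1 had a larger SD than 84.3% to 88.6% of tested genes, Cp than 66.8% and Stat3 than 51.4%. The within-genotype SD in log2 was 0.29 for Gfap, 0.20 for Cp, 0.31 for Hspb1, 0.28 for Osmr, 0.16 for Stat3 and 0.29 for Cd44, against a median of 0.16 over the tested genes. Gfap and Cp correlated over the 16 animals with r = 0.75 (permutation p = 0.00057, adjusted over 15 pairs 0.00855) and rho = 0.82 (adjusted p = 0.0021), and r was 0.69 without the 2 most distant animals. Permutations over animals ignored genotype, so differences between genotype means enter those p-values. For deviations from genotype means, permuted within genotypes, r was 0.86 and rho 0.82 (adjusted p = 0.0147), and r was 0.76 without the 2 most distant animals. The 2 most distant animals there were WT replicate 3, high in both genes, and Trem2 knockout replicate 4, low in both. Osmr and Stat3, the receptor chain and the transcription factor of the same pathway, had r = 0.62 within genotypes (adjusted p = 0.0594) and rho = 0.70 (permutation p = 0.00278, adjusted p = 0.0208). Over animals, that pair had r = 0.43 (adjusted p = 0.356). Hspb1 and Osmr had r = 0.63 within genotypes (permutation p = 0.0182, adjusted p = 0.0908) and 0.56 over animals (adjusted p = 0.169). Gfap and Stat3 had r = -0.15 over animals and -0.31 within genotypes (adjusted p = 0.867 and 0.763). Over animals and within genotypes, Gfap had r = 0.15 and -0.16 with Hspb1. It had -0.26 and -0.33 with Osmr, and 0.11 and -0.16 with Cd44. Cp and Hspb1 had r = 0.52 over animals (adjusted p = 0.186) and 0.08 within genotypes (adjusted p = 0.804).

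**Figure D4:**
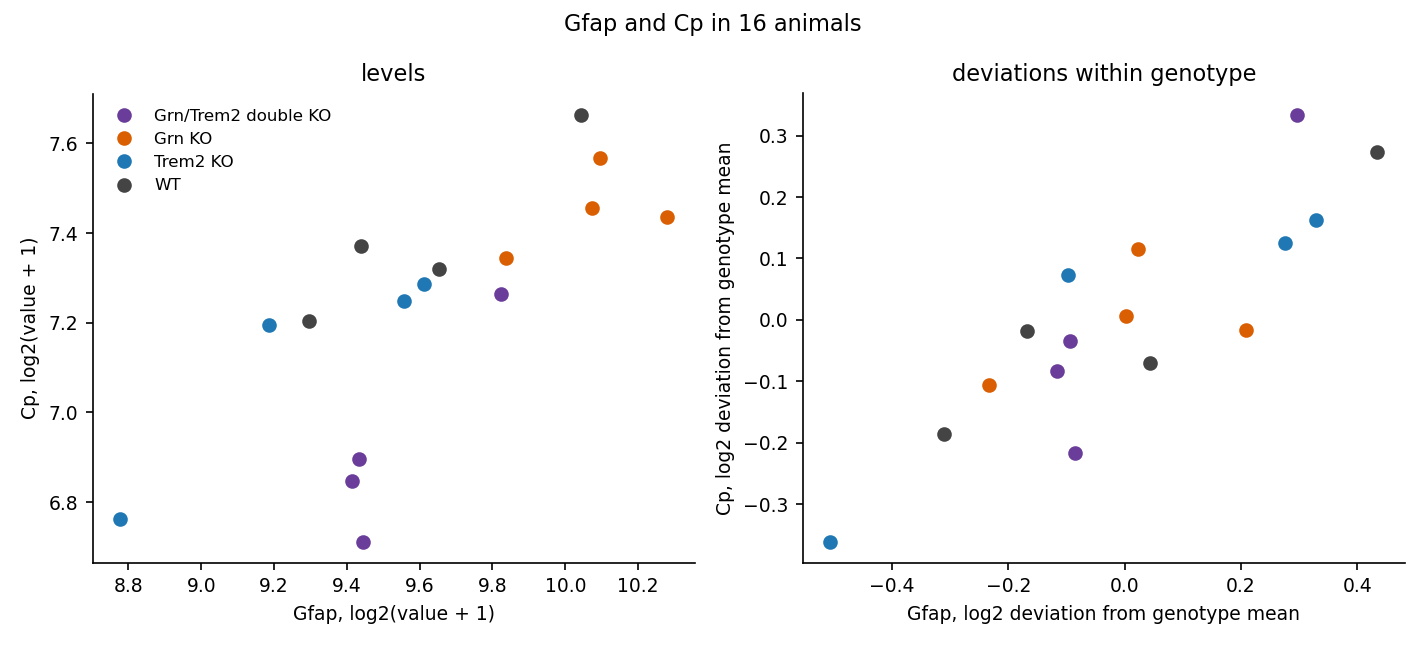
Cp against Gfap in 16 animals coloured by genotype, as log2(value + 1) on the left (r = 0.75) and as log2 deviations from the genotype mean on the right (r = 0.86). Points run from low in both genes to high in both, with Trem2 knockout replicate 4 at the low end of both panels.

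Levels of cell type markers stood beside these values as follows. The 6 general astrocyte markers on the panel (Aldh1l1, Slc1a2, Aqp4, S100b, Sox9 and Kcnj10) summed to 16248 to 17652 in double knockouts, 16491 to 17479.7 in Grn knockouts, 14551 to 17499 in Trem2 knockouts and 16390.1 to 17568 in WT, so the genotypes overlapped. All 6 were below 0 in log2 fold change for Trem2 loss averaged over both Grn states (median -0.07, against -0.002 over all tested genes). In the Trem2 knockout against WT, 5 were below 0 (median -0.10, against -0.02). In the double knockout against the Grn knockout, 3 were below 0 and 3 above (median -0.004), and 0 passed in these comparisons. Gfap correlated with the astrocyte sum over animals with r = 0.63 (permutation p = 0.00819, adjusted over 21 relations 0.086). The 8 microglia markers on the panel, of 10 listed, summed to 3007 to 3336 in double knockouts, 3175 to 3729.7 in Grn knockouts, 2588 to 3381 in Trem2 knockouts and 3001 to 3155 in WT. The Grn knockout lay above WT in this sum. Of the 7 microglia markers tested, all 7 were above 0 in the Grn knockout against WT (median 0.17). In the double knockout against the Grn knockout, 6 were below 0 (median -0.07), and 0 passed in either comparison. Gfap had r = 0.60 with the microglia sum over animals (adjusted p = 0.0986) and 0.21 within genotypes (adjusted p = 0.777), and the part of microglia in the Gfap levels was not tested. The 7 endothelial and mural markers on the panel, of 13 listed, summed to 765 to 911 in double knockouts, 871 to 1095 in Grn knockouts, 730 to 1171 in Trem2 knockouts and 961 to 1145 in WT. The double knockout lay below WT in this sum. Of the 7 markers, 6 were below 0 in log2 fold change in the double knockout against the Grn knockout (median -0.29) and 0 passed the adjusted threshold. All 7 were below 0 in the double knockout against WT (median -0.30) and for Trem2 loss averaged over both Grn states (median -0.20). In the Trem2 knockout against WT, 6 were below 0 (median -0.23), and 0 passed in these comparisons either. Gfap had r = 0.70 with this sum within genotypes (permutation p = 0.0198, adjusted p = 0.111, rho = 0.66, r = 0.52 without the 2 most distant animals) and 0.53 over animals (adjusted p = 0.131). Cp correlated with the endothelial and mural sum over animals (r = 0.79, permutation p = 0.00034, adjusted p = 0.00714, rho = 0.65 with adjusted p = 0.168, r = 0.66 without the 2 most distant animals) and within genotypes (r = 0.73, permutation p = 0.00249, adjusted p = 0.0487, rho = 0.66 with adjusted p = 0.0903, r = 0.60 without the 2 most distant). Other measures also went with both genes within genotypes. The sum of the positive control probes had r = 0.55 with Cp (permutation p = 0.0399, adjusted p = 0.168) and 0.44 with Gfap (adjusted p = 0.331). The astrocyte sum had r = 0.50 with Cp and 0.53 with Gfap (adjusted p = 0.331 for each). The part of vessel RNA in the lower Cp of the double knockout was not tested. Nor was the part of vessel RNA, the control probes or astrocyte RNA in the shared variation of Gfap and Cp. The 6 oligodendrocyte markers on the panel summed to 4926 to 6604 in double knockouts, 5719.8 to 7289.8 in Grn knockouts, 5809.6 to 6885.5 in Trem2 knockouts and 5887 to 7712.5 in WT. All 6 were below 0 in the double knockout against WT (median -0.24) and against the Grn knockout (median -0.07), and 0 passed. Gfap had r = 0.57 with this sum within genotypes (permutation p = 0.0212, adjusted p = 0.111, rho = 0.70 with adjusted p = 0.0886, r = 0.50 without the 2 most distant), and its part was not tested. Choroid plexus and ependyma had 0 of 10 listed markers on the panel and meninges 0 of 8, so their share of each sample was not measured. No marker value was at 0.

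Outside the 6 genes themselves, those whose levels over the 16 animals were most like Gfap, by Pearson r on log2 values, were Apoe (0.77), C1qb (0.76), Bad (0.73), C1qa (0.72) and Naglu (0.70). Within genotypes these were 0.62 for Apoe, 0.33 for C1qb, 0.72 for Bad, 0.22 for C1qa and 0.63 for Naglu. Those most like Cp, again outside the 6, were Esam (0.82), Tgfbr2 (0.79), Zfp24 (0.75), Tgfb1 (0.74) and Pecam1 (0.73), of which Esam and Pecam1 are endothelial markers and belong to the sum above. Within genotypes these were 0.73 for Esam, 0.77 for Tgfbr2, 0.61 for Zfp24, 0.50 for Tgfb1 and 0.77 for Pecam1. Gfap and Cp with each other had 0.75. The genes outside the 6 were chosen for the highest r over the 16 animals, and their values within genotypes were not ranked. All these values share each animal's scaling.

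Other genes of the reactive astrocyte response were few on the panel. Of 13 pan-reactive genes, 6 were tested, 5 of them already described and the other the chemokine gene Cxcl10, which was above background in 1 of 16 animals and is given no difference. Of the subset known as neurotoxic or A1-type, 2 of 13 were tested, the complement component C3, above background in 14 of 16 animals and at -0.49 in the double knockout against the Grn knockout (adjusted p = 0.677), and the immunoproteasome subunit Psmb8, at 0.28 for Grn loss averaged over both Trem2 states (adjusted p = 0.126). Of the A2-type subset, 1 of 12 was tested, the prostaglandin synthase Ptgs2, at -0.36 in the double knockout against the Trem2 knockout (adjusted p = 0.820). None of these genes passed the adjusted threshold in any comparison.

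On the pathway that leads to Gfap, 6 of 22 listed genes of gp130 and JAK-STAT signalling were tested, Osmr and Stat3 among them, and 0 passed in any comparison. Their median log2 fold change was 0.00 in the double knockout against the Grn knockout, with 3 above 0 and 3 below. The ligand Il6 was at 0.24 in the double knockout against WT (adjusted p = 0.713). The ligand Cntf was above background in 9 of 16 animals and is given no difference. Of 19 listed factors known to set off or shape astrocyte reactivity, 6 were tested: the complement C1q chains C1qa, C1qb and C1qc, Tgfb1, its receptor Tgfbr2, and Rela. In the Grn knockout against WT, C1qa and C1qb rose, by 0.65 and 0.52 (limma adjusted p = 0.0144 and 0.00353). Without WT replicate 3 or 4, or Grn knockout replicate 2 or 4, C1qa did not pass, with adjusted p from 0.0538 to 0.0766. In the double knockout against the Grn knockout, 1 of the 6 fell, C1qb, by 0.43 (adjusted p = 0.0353), a call that ended in 12 of 16 fits that each left out 1 animal, all but those without WT replicate 1 or 4 or Grn knockout replicate 1 or 3. All 6 of these factors had log2 fold changes below 0 there, with a median of -0.41, and all 6 were above 0 in the Grn knockout against WT, with a median of 0.33. The Grn knockout animals enter both comparisons. For Trem2 loss averaged over both Grn states, C1qb fell by 0.42 (adjusted p = 0.00117). With Grn loss averaged over both Trem2 states, C1qa, C1qb and C1qc rose, by 0.50, 0.50 and 0.37. In the double knockout against the Trem2 knockout, C1qb rose by 0.49 (adjusted p = 0.00998). Without Trem2 knockout replicate 4 that adjusted p was 0.0516. The C1qc call for averaged Grn loss (limma adjusted p = 0.0295) ended in 8 of 16 fits that each left out 1 animal. Adjusted p ran up to 0.0888 there. Those fits were without WT replicate 2 or 3, Grn knockout replicate 1, 2 or 4, or double knockout replicate 1, 3 or 4. Tgfb1 was at -0.47 (unadjusted p = 0.00126, adjusted p = 0.216) and Tgfbr2 at -0.40 (adjusted p = 0.492) in the double knockout against the Grn knockout, the comparison in which Gfap was at -0.54 and Cp at -0.52.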

How the data were processed

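Total brain RNA of 16 mice was purified with a silica column kit, per the labels' protocols, and measured with 770 gene probes, 6 positive and 8 negative control probes. The authors deposited 1 signal for each probe in each animal. Their software, background correction and normalization were not given in the sources used here. From the values, the deposited gene signal is a whole count times 1 factor per animal (tolerance 0.0075 counts), scaled to 10 reference genes, with no background subtracted. A change shared with the reference genes cannot be seen, and background shrinks the fold changes of weak genes.

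Genes with a mean of at least 20 were tested (708, the 6 reactive astrocyte genes among them). The fit used limma 3.58.1 (R 4.3.3) on log2 of the value plus 1, so fold changes of low genes are understated. It had 4 group means and 12 residual degrees of freedom, with two-sided tests and Benjamini-Hochberg adjustment within each comparison at 0.05. Correlations were tested with 100000 permutations (two-sided), across all animals for levels and within genotypes for deviations from genotype means. The fit was checked on simulated data with many more changed genes than passed in any real comparison. That check therefore does not give the power for the 6 genes here. Promoters came from RefSeq (GRCm38.p6), in which 763 panel genes matched as symbol and 7 as synonym. Besides the 6 genes, the text names the tested genes of each list that were called or had the 3 smallest unadjusted p, and the 5 genes most like Gfap and Cp. One gene that this rule would name is not reported here. Members and lists were chosen with earlier results of these data known.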

Additional observations from a re-analysis of the deposited data

Results flagged for a closer look

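Gfap in double knockout replicate 1 measured 906 normalized counts (905.54), far above the other 3 animals of its genotype, which lay between 681 and 695. The gap to the nearest animal was 0.935 of the range of the group, above Dixon's critical value for 4 animals at the 95% level. This was 1 of 24 groups of 4 animals examined, and chance alone sets off this rule in about 1 of 20 groups. The same animal was the highest of its genotype for Cp (153) and Hspb1 (118). Without it, the log2 fold change of Gfap between the double and the Grn knockout was -0.64, the far end of the range over animals left out.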

How the results depend on the processing

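No paired analysis was possible because each animal has a number of its own and none is shared across genotypes. The alternatives were other pseudocounts, filters, scalings, variance models and fits, subtraction of the negative controls, limma voom on recovered counts, and leaving out each animal in turn. Of 1222 tests of the 6 genes under them, 1 passed, Cp for averaged Trem2 loss without double knockout replicate 1, so the count of the 6 genes past the threshold ran from 0 to 1 there. The Gfap and Cp correlation, whose settings were chosen after seeing the data, ran from 0.68 to 0.80 over animals and from 0.79 to 0.90 within genotypes when 1 animal was left out.

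Small differences turned sign. With background subtracted, Hspb1 in the Grn knockout against WT was 0.0056, Osmr in the double against the Grn knockout -0.032, Cd44 in the double knockout against WT 0.0015 and the Cd44 interaction -0.072. With quantile normalization, Osmr in the double against the Trem2 knockout was 0.019 and Cd44 in the double knockout against WT 0.017. Leaving out 1 animal, the double knockout against WT ran from -0.18 to 0.066 for Gfap and from -0.15 to 0.034 for Cd44. The Grn knockout against WT ran from -0.0012 to 0.15 for Cp, -0.19 to 0.12 for Hspb1, -0.0093 to 0.14 for Stat3 and -0.032 to 0.155 for Cd44. The double against the Grn knockout ran from -0.084 to 0.21 for Osmr. Against the Trem2 knockout it ran from -0.14 to 0.155 for Osmr and -0.060 to 0.31 for Cd44. Stat3 in the Trem2 knockout against WT ran from -0.071 to 0.098, and its interaction from -0.012 to 0.16. For Cd44, averaged Grn loss ran from -0.0053 to 0.18 and the interaction from -0.11 to 0.26.

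Over the whole panel, scaling to the positive controls gave 1 gene in place of 4 in the Grn knockout against WT, 2 in place of 1 in the Trem2 knockout against WT, 1 in place of 2 in the double against the Grn knockout, 3 in place of 5 for averaged Grn loss and 1 in place of 0 for the interaction. It moved the median of all genes by up to 0.36 in log2, and the other values are relative to that shift. In the Trem2 knockout against WT, 2 genes passed also with a minimum mean of 50, a trended robust variance, and voom. Quantile normalization gave 8 genes in place of 2 in the double knockout against WT, and a fit of the compared groups alone 1 in place of 2 in the double against the Grn knockout. That fit gives no value for averaged losses or the interaction. Leaving out 1 animal, the counts ran from 1 to 2 in the Trem2 knockout against WT, 2 to 6 in the double knockout against WT, 1 to 3 in the double against either other knockout, and 2 to 4 for averaged Trem2 loss. The C1qa, C1qb and C1qc calls ended under positive control scaling, those of C1qb in the Grn knockout against WT and in the double against the Grn knockout also in the fit of the compared groups alone, and Psmb8 for averaged Grn loss passed after recentring on the median (adjusted p = 0.0259). The causes were not tested. Cxcl10 and Cntf lay at or near background, which limits what can be said of them.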
